A study of Mus musculus with 6 samples.

Results

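The genes described here are 35 collagen, matrix and mesenchymal genes, of the kind that fibrosarcoma cells and other fibroblast-like cells express, measured in CD8 T cells sorted from mouse tumours. They were chosen by name, with earlier results of these data known. Each gene was read from its brightest probe set by the mean over all 6 arrays. A probe set annotated to 1 gene was found for 33 of the 35. The levels of Fbn1 and Loxl2 were not analysed here. Of the 33, 32 passed a filter on low values and were tested among 12571 genes, and Lum did not. Of the 32 tested genes, 30 lay above the filter level on all 6 arrays, and Col12a1 and Timp3 fell below it on 1 array each.

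The RNA came from male C57BL/6 Eomes-GFP reporter mice bearing MCA-205 tumours, a chemically induced mouse sarcoma line. Treatment with the antibodies aOX40 (250 ug, days 12 and 16) and aCTLA-4 (200 ug, days 12, 14 and 16) began when tumours measured 50 to 80 mm2, and tumours were harvested on day 19. Both groups therefore carried the tumour, the reporter and the treatment, and no untreated group was analysed here. Tumour-infiltrating CD8 T cells were sorted by GFP into an Eomes+ and an Eomes- fraction, with 3 arrays each. The titles number the arrays 1, 2 and 3 in each fraction, and the design text speaks of independent experiments. No label ties an array to an animal, a pool or an experiment, or says what arrays of 1 number share, so the tests reflect only how far these arrays spread, and that spread may be technical.

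Fibrillar collagens are secreted as procollagens, trimmed and assembled into fibres that lysyl oxidase then cross-links, and fibronectin, thrombospondins, periostin and small proteoglycans bind and organise them. Fibroblasts, pericytes and tumours of mesenchymal origin make most of this matrix, respond to PDGF through its receptors and, when activated, express smooth muscle actin and other contractile proteins. T cells are not a known source of fibrillar collagen. Host fibroblasts express the same genes as a fibrosarcoma, so tumour and host origin cannot be told apart from these signals.

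Of the 7 members that also passed the test between the arrays numbered 1 and 2, 4 with different roles were picked. These are a chain of type III collagen, a chain of type I collagen, a cytoskeletal tropomyosin and smooth muscle actin. Their promoters, taken from RefSeq (GRCm38.p6), are shown. Each is the 250 bases before the annotated start on the gene's own strand, at chr1:45311288-45311537 (plus) for Col3a1, chr6:4505368-4505617 (plus) for Col1a2, chr9:67049214-67049463 (minus) for Tpm1 and chr19:34255374-34255623 (minus) for Acta2. Capitals mark, on either strand, the TATA box TATAAA, the core bound by TEAD factors and the CCAAT box. The letters of the TEAD core are GGAATG.
Col3a1: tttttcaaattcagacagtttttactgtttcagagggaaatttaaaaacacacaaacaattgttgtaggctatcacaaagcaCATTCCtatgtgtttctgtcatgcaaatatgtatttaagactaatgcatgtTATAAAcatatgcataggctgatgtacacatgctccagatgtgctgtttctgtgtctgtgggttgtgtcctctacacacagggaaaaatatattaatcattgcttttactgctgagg
Col1a2: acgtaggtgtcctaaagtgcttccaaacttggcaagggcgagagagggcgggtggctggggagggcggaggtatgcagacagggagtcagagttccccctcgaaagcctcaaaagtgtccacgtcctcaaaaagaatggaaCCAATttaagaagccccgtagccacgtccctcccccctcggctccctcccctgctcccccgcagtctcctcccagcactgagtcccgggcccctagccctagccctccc
Tpm1: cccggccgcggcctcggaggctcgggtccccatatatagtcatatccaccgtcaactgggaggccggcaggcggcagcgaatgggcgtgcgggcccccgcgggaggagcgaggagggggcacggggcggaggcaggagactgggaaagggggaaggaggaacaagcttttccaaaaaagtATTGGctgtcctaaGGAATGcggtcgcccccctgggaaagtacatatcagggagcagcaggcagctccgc
Acta2: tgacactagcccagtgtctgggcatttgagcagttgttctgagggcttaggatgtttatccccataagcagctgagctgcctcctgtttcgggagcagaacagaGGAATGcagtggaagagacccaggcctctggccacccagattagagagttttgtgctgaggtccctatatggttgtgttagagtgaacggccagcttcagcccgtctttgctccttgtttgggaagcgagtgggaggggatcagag
The Col3a1 stretch was 35.2% G or C and held both TATAAA and the reverse complement of GGAATG, whereas the Col1a2 stretch was 62.0% G or C and held CCAAT. The Tpm1 stretch (65.2% G or C) held GGAATG and CCAAT, and the Acta2 stretch (53.6%) held GGAATG.

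The table of promoters had a window for 22 of the 35 listed genes (Fbn1 and 21 tested members), 25 windows in all, of 300 bases each (250 before the start and 50 after). Tagln, Ccn2, Col1a1, Fn1, Lox and Mmp2 were among the genes without a window, so the motif counts do not cover them. GGAATG or its reverse complement was in the windows of 7 of the 22 genes (31.8%, against 16.6% of 27025 genes): Acta2, Cald1, Ccn1, Col3a1, Col6a2, Timp1 and Tpm1. The GC box GGGCGG was in those of 15 (68.2%, against 38.2%) and TATAAA in those of 5 (22.7%, against 15.7%), namely Col3a1, Postn, Ccn1, Cald1 and Thbs2. CCAAT was found for 10 genes (45.5%, against 41.1%), the SMAD core CAGAC for 12 (54.5%, against 53.2%), the AP-1 site TGANTCA for 2 (9.09%, against 8.97%) and the E-box CANNTG for 14 (63.6%, against 75.0%). The strict consensus of the CArG box bound by serum response factor (CC, then 6 letters of A or T, then GG) was in none of the 22 and in 1.81% of all genes. Bound CArG boxes often depart from that consensus, and with at most 1 letter off, a form added after seeing the strict count, it was in 6 of the 22 (27.3%, against 23.8%): Acta2, Cald1, Col1a2, Mmp14, Timp3 and Tpm1. Acta2 held 2 such matches, beginning 84 and 34 bases before the start, and a match of Col1a2 overlapped its CCAAT. All motifs were read on both strands, none was tested, and a match is a run of letters and not a binding site. Col4a1 and Col4a2 sit head to head, with starts 21 bases apart, and their windows at chr8:11312777-11313076 (minus) and chr8:11312555-11312854 (plus) share 78 bases.

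All 32 tested genes were higher on the arrays numbered 3 than on those numbered 1, by 1.09 (Col12a1) to 3.86 (Mmp2) on the log2 scale, which is 2.13-fold to 14.5-fold. Each passed the test (limma, fraction as an additive term, Benjamini-Hochberg adjusted p under 0.05 over all genes). That test takes the Eomes+ and Eomes- arrays of the same number as replicates, though no label ties them, and its p-values rest on this. Over all genes, 14.5% were higher by this test and 10.6% were lower, and no member was lower. The members were chosen with earlier results of these data known, so their count beside these shares is not a test of the list. The median difference was 2.91 for the members and -0.06 for all genes. The fold was at least 4 in both fractions for 27 members, a size reached by 4.96% of all genes. Fewer cells of a type and less RNA per cell cannot be told apart in such bulk samples.

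The ordering of the 3 numbers was nearly the same throughout the list. For all 33 genes with a probe set the number 3 array gave the highest signal in both fractions, and for 31 the number 1 array gave the lowest. The shares of all genes for these 2 counts are not given here. The 33 include Lum, which was under the filter level on most arrays. Signal on the number 2 arrays lay between the other two in both fractions for 30 of the 32 tested members, against 14.4% of all genes, with Col12a1 and Tagln the exceptions. The median member difference was 1.40 between numbers 2 and 1 and 1.39 between numbers 3 and 2, fitted over both fractions. On single arrays of each fraction and number these steps differed, and the difference was not tested. On arrays 1, 2 and 3 the member mean was 8.57, 10.42 and 11.31 in Eomes+ and 8.46, 9.47 and 11.38 in Eomes-. The larger step thus came first in Eomes+ and last in Eomes-. Between numbers 2 and 1, 7 members passed (Col1a2, Col3a1, Col4a1, Sparc, Dcn, Acta2 and Tpm1), where 0.358% of all genes were higher. Between numbers 3 and 2, 27 members passed, where 6.32% of all genes were higher, and Col5a2, Thbs1, Thbs2, Lox and Tagln did not. As the members moved together across the arrays, these counts are not made of separate observations either.

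**Figure D1:**
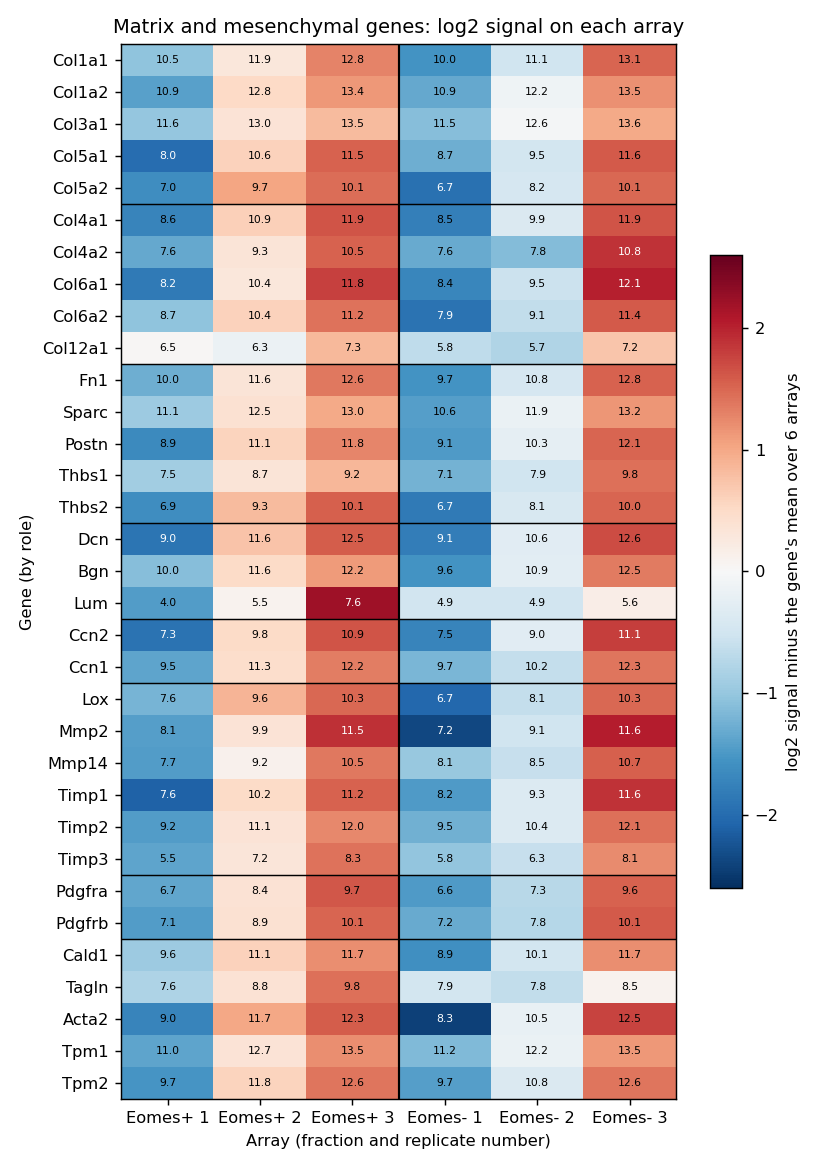
Colour shows the log2 signal of each matrix or mesenchymal gene on each of the 6 arrays as a difference from that gene's mean over the arrays, with genes in rows by role and the Eomes+ and Eomes- arrays numbered 1 to 3 in columns. In both fractions the number 1 columns lie below the gene means, apart from Col12a1 in Eomes+, and the number 3 columns above, and the number 2 column is higher in Eomes+ than in Eomes-.

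Fibrillar collagens form the load-bearing fibres of connective tissue, and all 5 were higher on the number 3 arrays, with a median difference of 2.69. Col3a1, the chain of type III collagen, had log2 signals of 11.62, 12.99 and 13.46 in Eomes+ and 11.51, 12.57 and 13.62 in Eomes- on arrays 1, 2 and 3. Col5a2, a chain of the type V collagen that helps nucleate fibrils, had 7.02, 9.66 and 10.10 in Eomes+ and 6.70, 8.21 and 10.14 in Eomes-. In both genes the number 1 arrays were lowest, and no number 3 value overlapped the number 1 values. The difference between numbers 3 and 1 was 1.97 ± 0.14 (SE) for Col3a1 (limma adjusted p = 0.000958) and 3.26 ± 0.39 for Col5a2 (limma adjusted p = 0.00151). Type I collagen, the main collagen of scar and stroma, moved in both of its chains: Col1a1 had 10.52, 11.86 and 12.85 in Eomes+ and 10.01, 11.05 and 13.07 in Eomes-, and Col1a2 had 10.86, 12.79 and 13.40 in Eomes+ and 10.93, 12.16 and 13.46 in Eomes-. Their differences were 2.69 ± 0.23 and 2.54 ± 0.18, or 6.46-fold and 5.80-fold. Col5a1, the partner chain of type V, had 7.97, 10.55 and 11.50 in Eomes+ and 8.70, 9.49 and 11.57 in Eomes-, with Eomes+ below Eomes- on the number 1 arrays and a difference between numbers 3 and 1 of 3.20 ± 0.38.

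Among the other collagens, types IV and VI moved more than the fibrillar median and type XII less. Col4a1, a chain of the basement membrane network, had 8.56, 10.91 and 11.93 in Eomes+ and 8.51, 9.91 and 11.92 in Eomes-, a difference between numbers 3 and 1 of 3.39 ± 0.27 (limma adjusted p = 0.000958). Col4a2, which pairs with it in the same molecule and lies next to it, had 7.60, 9.27 and 10.47 in Eomes+ and 7.63, 7.82 and 10.82 in Eomes-. The Eomes- array numbered 2 stayed close to number 1 for Col4a2, and not for Col4a1. Col6a1, a chain of the beaded filaments around cells, had 8.22, 10.37 and 11.84 in Eomes+ and 8.37, 9.51 and 12.10 in Eomes-, 12.8-fold between numbers 3 and 1 (limma adjusted p = 0.000958). Its neighbour chain Col6a2 had 8.75, 10.40 and 11.21 in Eomes+ and 7.88, 9.15 and 11.39 in Eomes-, with a difference of 2.99 ± 0.34.

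Col12a1, a fibril-associated collagen, was the member of smallest difference, at 1.09 ± 0.30 (limma adjusted p = 0.0346). Its brightest probe set had 6.50, 6.31 and 7.30 in Eomes+ and 5.80, 5.68 and 7.19 in Eomes-, with the number 2 arrays lowest in both fractions. Other probe sets for the gene disagreed with it in size. One read 4.41, 6.80 and 7.99 in Eomes+ and 2.86, 5.46 and 7.53 in Eomes-, a mean difference of 4.12 between numbers 3 and 1, and that of another was 1.49. With the second brightest probe set the Col12a1 difference was 1.49 and did not pass, and it also did not pass without Eomes+ 1 (1.26), Eomes- 1 (0.93), Eomes- 2 (1.09) or Eomes- 3 (0.82).

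Matrix glycoproteins link collagen to cells, and all 5 tested ones were higher on the number 3 arrays, with a median difference of 2.86. Sparc, a collagen-binding protein secreted by remodelling tissue, had 11.10, 12.45 and 13.05 in Eomes+ and 10.63, 11.88 and 13.21 in Eomes-, a difference of 2.26 ± 0.18 (limma adjusted p = 0.000958). Thbs2, a thrombospondin that regulates fibril assembly, had 6.89, 9.32 and 10.06 in Eomes+ and 6.66, 8.08 and 10.02 in Eomes-, a difference of 3.27 ± 0.35 (limma adjusted p = 0.00126). For Sparc the number 1 and number 3 values stood at least 1.95 apart within each fraction, and for Thbs2 at least 3.17 apart. Fn1, fibronectin, had 9.96, 11.57 and 12.60 in Eomes+ and 9.68, 10.78 and 12.76 in Eomes-, and Postn, periostin, had 8.90, 11.13 and 11.82 in Eomes+ and 9.08, 10.31 and 12.06 in Eomes-. Both showed the same placing of the arrays, with differences of 2.86 ± 0.22 and 2.94 ± 0.27. Thbs1, which can activate latent TGF-beta, had 7.47, 8.70 and 9.22 in Eomes+ and 7.12, 7.85 and 9.79 in Eomes-, a difference of 2.21 ± 0.38, and its Eomes- value exceeded its Eomes+ value on the number 3 arrays by the widest margin of any member.

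Small leucine-rich proteoglycans coat collagen fibrils and set their spacing. Bgn, biglycan, had 10.03, 11.64 and 12.24 in Eomes+ and 9.58, 10.86 and 12.48 in Eomes-, a difference of 2.55 ± 0.23 (limma adjusted p = 0.00104), and its 2 other probe sets gave mean differences of 1.98 and 1.70. Dcn, decorin, had 8.99, 11.62 and 12.46 in Eomes+ and 9.08, 10.58 and 12.58 in Eomes-, a difference of 3.49 ± 0.28 (limma adjusted p = 0.000958). In both genes Eomes+ lay above Eomes- on the number 2 arrays and slightly below on number 3. Lum, lumican, was not tested: its signals were 3.97, 5.51 and 7.63 in Eomes+ and 4.92, 4.92 and 5.60 in Eomes-, under the filter level on most arrays and highest on the number 3 array of each fraction.

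The CCN proteins are secreted matricellular factors induced by YAP/TEAD and TGF-beta signalling. Ccn2, listed as Ctgf, had 7.33, 9.76 and 10.89 in Eomes+ and 7.54, 8.95 and 11.06 in Eomes-, a difference between numbers 3 and 1 of 3.54 ± 0.31 or 11.6-fold (limma adjusted p = 0.000958). Ccn1, listed as Cyr61, had 9.49, 11.32 and 12.18 in Eomes+ and 9.68, 10.24 and 12.26 in Eomes-, a difference of 2.64 ± 0.30 (limma adjusted p = 0.00135). In both, the 2 fractions differed by at most 0.21 on the number 1 and number 3 arrays, and Eomes+ was the higher on number 2.

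Enzymes that cut or cross-link the matrix, and their inhibitors, had a median difference of 2.91, and all 6 tested ones were higher on the number 3 arrays. Mmp2, a gelatinase, had 8.15, 9.94 and 11.47 in Eomes+ and 7.21, 9.06 and 11.61 in Eomes-, the largest member difference at 3.86 ± 0.30, 14.5-fold (limma adjusted p = 0.000958). It ranked 28 of 12571 genes for this difference. Mmp14, the membrane protease that activates pro-Mmp2, had 7.67, 9.23 and 10.49 in Eomes+ and 8.14, 8.52 and 10.68 in Eomes-, a difference of 2.68 ± 0.32. Timp2, an inhibitor that also takes part in that activation, had 9.25, 11.07 and 11.96 in Eomes+ and 9.46, 10.36 and 12.15 in Eomes-, a difference of 2.70 ± 0.25 (limma adjusted p = 0.00104). Protease and inhibitors were thus both highest on the number 3 arrays. Timp1, a broad metalloproteinase inhibitor, had 7.58, 10.18 and 11.22 in Eomes+ and 8.21, 9.32 and 11.57 in Eomes-, a difference of 3.50 ± 0.35. Timp3, the inhibitor that stays bound to the matrix, had 5.49, 7.18 and 8.27 in Eomes+ and 5.83, 6.26 and 8.09 in Eomes-, a difference of 2.52 ± 0.37. Lox, the lysyl oxidase that cross-links collagen, had 7.55, 9.64 and 10.26 in Eomes+ and 6.72, 8.14 and 10.26 in Eomes-, a difference of 3.12 ± 0.37 (limma adjusted p = 0.00155). Its Eomes- array numbered 2 was closer to number 1 than its Eomes+ counterpart was.

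The PDGF receptors are the growth factor receptors of fibroblasts and pericytes. Pdgfra had 6.72, 8.44 and 9.68 in Eomes+ and 6.59, 7.35 and 9.59 in Eomes-, a difference of 2.98 ± 0.35 (limma adjusted p = 0.0015). Pdgfrb had 7.08, 8.92 and 10.06 in Eomes+ and 7.22, 7.80 and 10.12 in Eomes-, a difference of 2.94 ± 0.37 (limma adjusted p = 0.00181). The Eomes- array numbered 2 lay 0.75 above number 1 for Pdgfra and 0.58 for Pdgfrb, whereas the Eomes+ array numbered 2 lay 1.73 and 1.84 above it.

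The contractile members had a median difference of 2.47. Acta2, smooth muscle actin and the usual marker of activated fibroblasts, had 8.99, 11.72 and 12.29 in Eomes+ and 8.28, 10.51 and 12.47 in Eomes-, a difference of 3.75 ± 0.30 or 13.4-fold (limma adjusted p = 0.000958). Tpm1, a tropomyosin that stabilises actin filaments, had 10.96, 12.69 and 13.55 in Eomes+ and 11.19, 12.15 and 13.46 in Eomes-, a difference of 2.43 ± 0.17 (limma adjusted p = 0.000958). Acta2 already differed by 2.48 between numbers 2 and 1 (limma adjusted p = 0.0448), the largest such difference among members. Tpm2 had 9.65, 11.76 and 12.59 in Eomes+ and 9.75, 10.80 and 12.58 in Eomes-, and Cald1, caldesmon, had 9.60, 11.13 and 11.74 in Eomes+ and 8.95, 10.05 and 11.75 in Eomes-, with differences of 2.88 ± 0.25 and 2.47 ± 0.26.

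Tagln, the actin-binding protein transgelin, stood apart from the other contractile genes. It had 7.62, 8.79 and 9.85 in Eomes+ and 7.94, 7.78 and 8.52 in Eomes-, so that the Eomes+ arrays spread over 2.23 between numbers 1 and 3 and the Eomes- arrays over 0.57. Its difference between numbers 3 and 1 was 1.40 ± 0.42 (limma adjusted p = 0.0479), and it was the only member that did not pass the F test over the 3 numbers (limma adjusted p = 0.115), which 31 members and 19.2% of all genes passed. Without the Eomes+ array numbered 1 its difference fell to 0.65 (limma adjusted p = 0.385), without Eomes+ 3 it was 0.91, without Eomes- 1 it was 2.15 and without Eomes- 3 it was 1.89 (both passed), and without either number 2 array it was 1.40 and did not pass. Some other scalings, variance models and filters ended the call as well, with differences of 1.05 to 1.40. Whether the number difference of Tagln differed between fractions was not tested, since each fraction has 1 array per number.

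**Figure D2:**
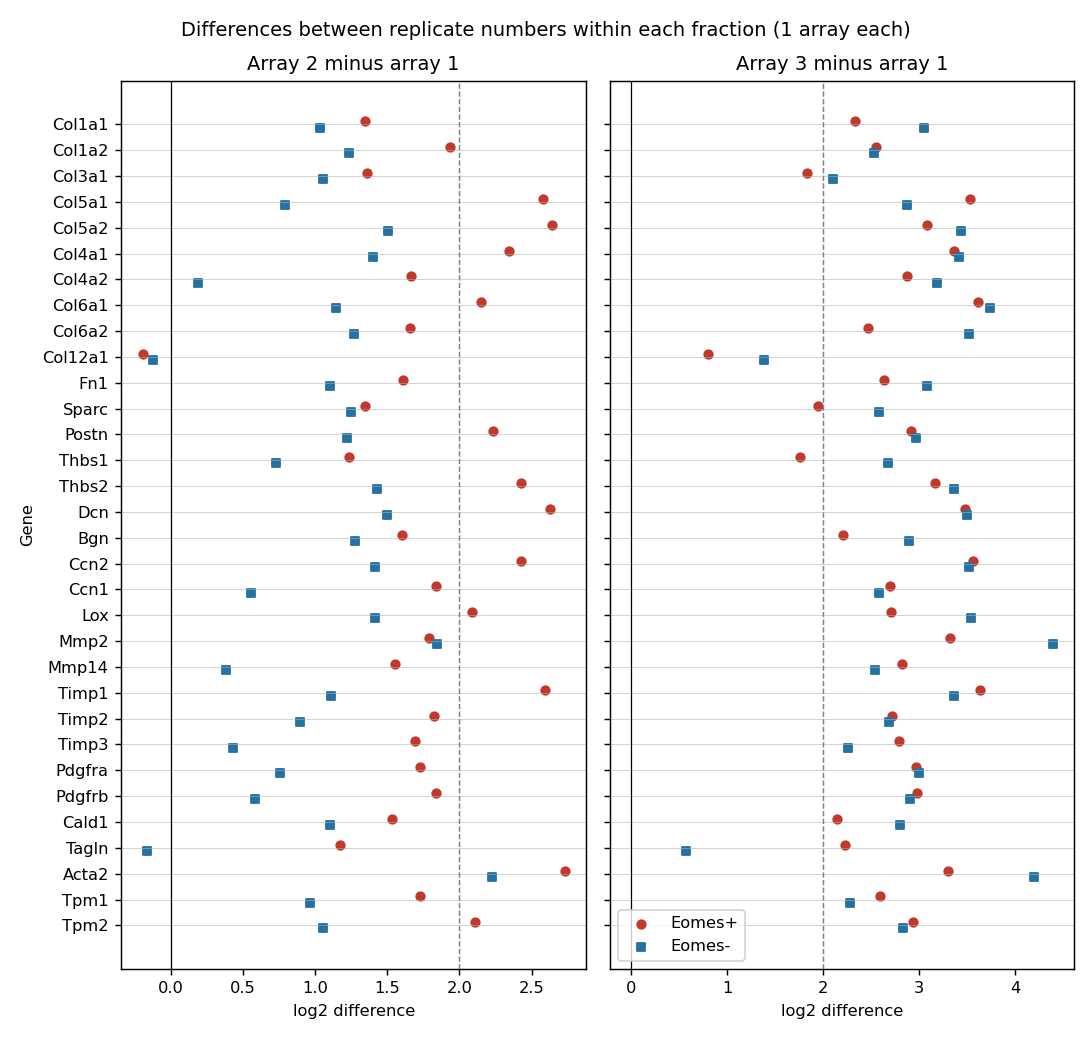
Points give, for each matrix or mesenchymal gene in rows, the log2 difference between 2 replicate numbers within Eomes+ (circles) and within Eomes- (squares), 1 array each; the dashed line marks 2 on the log2 scale, a 4-fold difference. For number 3 minus 1 the fractions lie close together around medians of 2.80 and 2.94, and for number 2 minus 1 the Eomes+ points (median 1.81) lie to the right of most Eomes- points (median 1.11).

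Several members have more than 1 probe set. There were 52 further probe sets for 26 members, of which 44 passed the filter, and 43 of these were higher on number 3 than on number 1 in both fractions. Their median difference was 2.80. The exception was a probe set of Sparc, with differences of 0.32 in Eomes+ and -0.22 in Eomes-, while a further Sparc probe set gave 2.88. The further probe sets read the same genes in the same RNA, so their count adds no separate support. Some passed the filter on 3 arrays only, among them 1 of Col12a1 that was above it on neither number 1 array. The same count over all probe sets is not given here. In the ranking of all genes by the difference between numbers 3 and 1, 6 members were in the first 100, 24 in the first 500 and 30 in the first 1000, and the median member rank was 303.

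No member passed the test between the Eomes+ and Eomes- fractions (limma adjusted p = 0.9999 for every member), and 0% of all genes did. At an unadjusted p under 0.05 no member was called either, where 3.25% of all genes were. No member had fractions that did not overlap, against 3.05% of all genes higher in Eomes+ without overlap and 4.66% lower. The mean level of the tested members was 10.10 ± 1.40 in Eomes+ and 9.77 ± 1.49 in Eomes- (SD, n = 3), a gap smaller than the spread between arrays of 1 fraction. Of the 32, 31 had a higher mean in Eomes+, as had 47.4% of all genes, with a median member difference of 0.30. The members moved together across the arrays, with correlations to the other members of 0.765 to 0.998 (median 0.988). That count is therefore not made of separate observations. All 32 were higher in Eomes+ on the number 2 arrays, 16 on number 1 and 8 on number 3. The fraction test holds the fraction alone, so its errors include the spread between the numbers. Fitted differences ran from -0.04 ± 1.16 (SE) for Timp1 to 0.77 ± 1.05 for Lox. That median was -0.31 without Eomes+ 3, -0.36 without Eomes- 1, 1.07 without Eomes+ 1 and 1.05 without Eomes- 3. Eomes itself, the factor used for the sort through its reporter, read 10.38, 9.86 and 8.38 on the Eomes+ arrays and 6.85, 6.89 and 5.42 on the Eomes- arrays, which did not overlap. Its difference of 3.15 ± 0.64 (SE) did not pass either (limma adjusted p = 0.9999), so a miss of this test says little about the members.

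Within the numbers the picture varied. On the number 2 arrays all 32 members were higher in Eomes+, where 48% of all genes were, by 0.42 (Col3a1) to 1.50 (Lox) with a median of 0.90. The difference there was at least 0.5 for 31 members, against 15.7% of all genes. On the number 1 arrays 16 members were higher in Eomes+ (48.8% of all genes) and 16 lower, from -0.72 (Col5a1) to 0.93 (Mmp2) with a median of 0.01. On the number 3 arrays 8 members were higher (47.3% of all genes) and 24 lower, from -0.57 (Thbs1) to 1.33 (Tagln) with a median of -0.13. Col4a1, Col12a1, Thbs2, Timp3, Pdgfra, Tagln, Tpm1 and Tpm2 were those 8, and only Tagln reached 0.5. Each of these values compares 1 array with 1 array, so the difference between numbers was not tested. Since the members moved together across the arrays, the counts beside the shares of all genes are not made of separate observations.

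**Figure D3:**
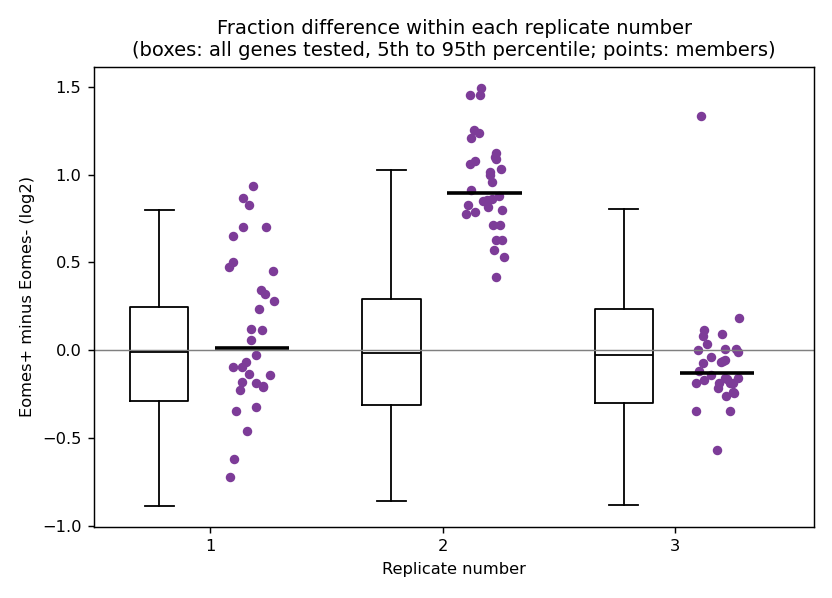
Each point is the Eomes+ minus Eomes- difference in log2 signal of 1 matrix or mesenchymal gene within replicate number 1, 2 or 3, with a bar at the median, beside boxes that show all genes tested with whiskers from the 5th to the 95th percentile. All 32 points lie above 0 on number 2, they are split evenly around 0 on number 1, and 24 lie below 0 on number 3, where the point at 1.33 is Tagln.

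Genes of the same pathways outside the 35 were read from lists chosen by function, and in the counts of these and the marker lists, higher and lower mean that the gene passed the test. Of 21 tested genes that fold and process procollagen, 18 were higher on the number 3 than on the number 1 arrays, none was lower, and the list median was 2.08. Serpinh1, the collagen chaperone Hsp47, was higher by 2.74 ± 0.17 (SE), P4ha1, a prolyl hydroxylase subunit, by 1.79 ± 0.16, and Crtap, part of the prolyl 3-hydroxylase complex, by 2.29 ± 0.21. Sec23a, Mia3 and Ppib did not pass. Of 41 other matrix genes, 33 were higher and none lower, with a median of 2.37. They included the laminin chain Lamb1 (3.05 ± 0.22), the secreted glycoprotein Fstl1 (2.67 ± 0.20) and the proteoglycan asporin, Aspn (3.69 ± 0.28).

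Of 15 tested remodelling enzymes (22 listed), 13 were higher and 1, Adam19, was lower, and the median was 2.86. Fap, the fibroblast activation protease, read 4.24, 7.77 and 9.08 in Eomes+ and 3.42, 6.14 and 8.50 in Eomes-, a fitted difference of 4.96 ± 0.34. Both its number 1 values lay below the filter level, so it passed the filter through the other arrays and that size is set against background signal. The same held for Adamts4, with 5.36 and 5.58 on the number 1 arrays and a difference of 3.22. Adamts1, a proteoglycan-cutting protease, differed by 3.82 ± 0.30, and Plau, urokinase, by 3.52 ± 0.28. Of 31 mesenchymal and contractile genes, 21 were higher and 1, Cnn2, was lower, with a median of 1.65. The myosin light chain Myl9 differed by 4.03 ± 0.25, the nuclear lamin Lmna by 2.98 ± 0.23 and the calponin Cnn3 by 4.08 ± 0.32. Vim and S100a4, often used as mesenchymal markers, differed by 0.13 and 0.17 and did not pass.

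Matrix receptors were the list with the fewest calls. Of 18 tested, 8 were higher, none was lower and the median was 0.77. The heparan sulphate proteoglycans Sdc4 and Sdc2 differed by 3.25 ± 0.28 and 2.98 ± 0.28, and the fibronectin receptor subunit Itga5 by 2.64 ± 0.33. Cd44 and Itgb1, which T cells also express, differed by 0.25 and 0.13 and did not pass. Read against the 14.5% of all genes that were higher, the share was 85.7% for collagen folding, 80.5% for other matrix genes, 86.7% for remodelling enzymes, 67.7% for mesenchymal and contractile genes and 44.4% for receptors.

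**Figure D4:**
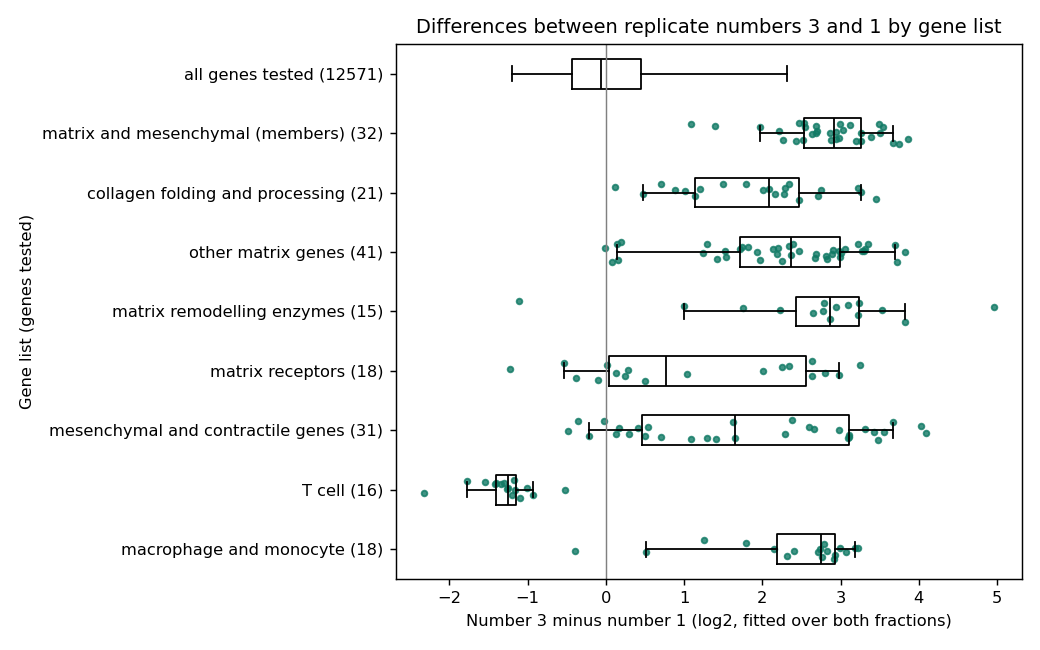
Points give the difference in log2 signal between the arrays numbered 3 and 1 (limma fit, both fractions) for each tested gene of the matrix and mesenchymal members, of 5 related pathway lists and of T cell and macrophage markers, with boxes of median and quartiles and whiskers from the 5th to the 95th percentile, beside a box of all genes tested. The members lie from 1.09 to 3.86, the remodelling enzymes reach 4.96 (Fap, below the filter level on both number 1 arrays), and the matrix receptors have a median of 0.77.

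Markers of other cells moved with the numbers as well, and their part in the member values was not tested. Of 16 tested T cell markers (18 listed), 15 passed as lower on the number 3 than on the number 1 arrays, Skap1 (-0.52) did not pass, and the list had a median of -1.25. Cd8a read 13.05, 12.83 and 11.95 in Eomes+ and 13.48, 13.55 and 12.56 in Eomes-, so the defining marker of the sorted cells was high on every array. The member mean minus the T cell marker mean was -2.82, -0.81 and 1.24 in Eomes+ and -3.05, -2.08 and 1.15 in Eomes-. The matrix mean thus lay above the T cell mean on both number 3 arrays. What share of the RNA came from T cells was not tested. Of 18 tested macrophage and monocyte markers (20 listed), 17 passed as higher, Ccr2 (-0.39) did not pass, and the list had a median of 2.75. Lyz2, the myeloid lysozyme, differed by 2.76 ± 0.17 (SE), and C1qa, a complement chain of tissue macrophages, by 3.22 ± 0.24. The summed signal of the macrophage list, on the log2 scale, was 13.69 to 14.01 on the number 1 arrays, 14.49 to 15.15 on number 2 and 15.73 to 15.76 on number 3. That of the T cell list was 15.86 to 16.03, 15.66 to 16.06 and 14.63 to 14.93.

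Of 11 tested endothelial markers (15 listed), 7 were higher and none lower, with a median of 1.48. Cdh5, the junction cadherin of vessels, differed by 2.93 ± 0.30 and was below the filter level on 1 array. The endothelial sum was 9.67 to 9.78 on number 1, 10.12 to 10.99 on number 2 and 11.06 to 11.17 on number 3. Of 4 tested neutrophil markers (8 listed) 2 were higher and none lower, with sums of 8.24 to 8.45, 8.90 to 10.58 and 11.04 to 11.47. Of 8 tested pericyte and smooth muscle markers (10 listed) 2 were higher and 1, Kcnj8, was lower, with a median of 0.40. Their sums were 9.53 to 10.85, 9.53 to 10.63 and 9.75 to 10.81. None of 4 tested B and plasma cell markers (9 listed) passed in either direction. Of 7 tested epithelial markers (8 listed) 2 were higher and 1 lower, and 1 of 2 tested red blood cell markers (5 listed) was higher. Over all genes 14.5% were higher and 10.6% lower, and the smallest of these lists cannot be set apart from those shares. No listed marker can be called absent from these values, since the log2 signals keep a background.

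Array medians were nearly equal, from 6.35 to 6.42. The 3' minus 5' log2 difference of the Gapdh control probe sets, a measure of RNA quality, was 1.88, 1.77 and 1.55 in Eomes+ and 1.54, 1.07 and 1.11 in Eomes-. It was 1.74 ± 0.17 against 1.24 ± 0.26 (SD, n = 3; two-sided exact permutation p = 0.1, the lowest value possible with 3 arrays on each side). For Actb it was 0.13 ± 0.04 against 0.05 ± 0.06 (exact p = 0.2). In both fractions the Gapdh value was higher on number 1 than on number 3, and the Actb value was lower. Whether RNA quality bears on the differences between numbers was not tested.

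**Figure D5:**
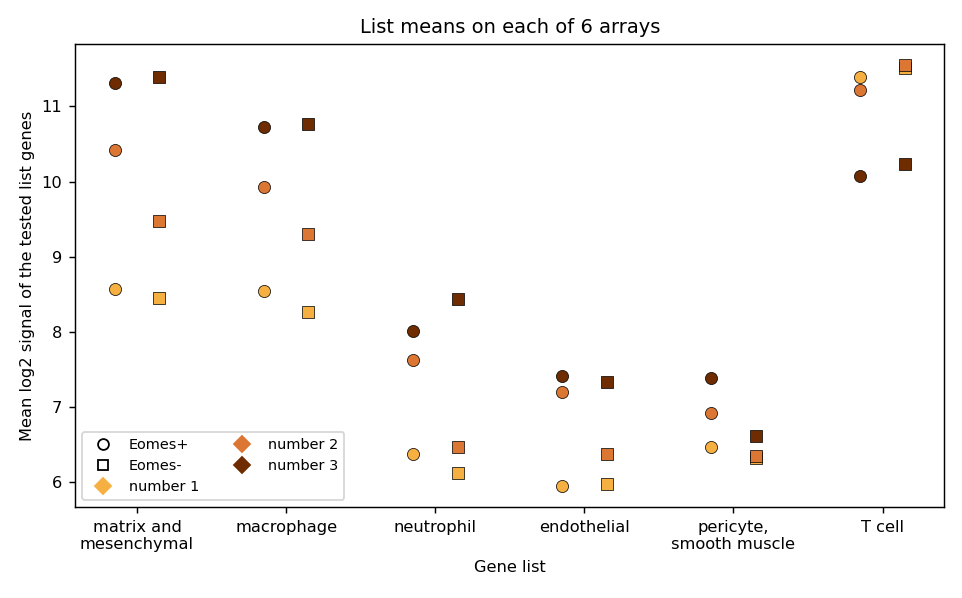
Points give the mean log2 signal of each gene list on each of the 6 arrays, coloured by replicate number, with circles for Eomes+ and squares for Eomes-. The matrix and mesenchymal mean runs from 8.46 to 11.38 and the macrophage mean from 8.26 to 10.76, both highest on the number 3 arrays, while the T cell mean is lowest there (10.08 and 10.23).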

How the data were processed

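The 6 RNA samples were measured on 1-colour arrays, and groups and numbers were taken from the sample titles. The authors deposited log2 signals of 45101 probe sets (1.68 to 14.95). The scale was read from the values. Per the submitters' processing notes, MAS5 and Transcriptome Analysis Console were used, with no version or role given. Of the probe sets, 64 controls were left out, 34945 had 1 gene symbol, 932 several and 9160 none, and symbols were updated through RefSeq (GRCm38.p6). A probe set was kept above its array's 40th percentile (5.70 to 5.72) on at least 3 of 6 arrays, and the brightest one stood for each gene. Fits used limma 3.58.1 in R 4.3.3 (eBayes with trend, two-sided, Benjamini-Hochberg over 12571 genes, threshold 0.05), with fraction alone or number plus fraction. Both were tested on simulated data whose noise left out the spread between numbers. How the fit with fraction alone performs under that spread was not tested. The members, lists, tests and named genes were chosen with earlier results of these data known. Per-array values were given for, in each role, the member of highest mean and of largest number 3 minus 1 difference, and for others chosen after their values were seen. Pathway genes were the 3 of smallest p per list, and Vim, S100a4, Cd44, Itgb1 and the markers were chosen after their values were seen. The number of arrays limits the precision.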

Additional observations from a re-analysis of the deposited data

How the results depend on the processing

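Every tested member was higher on number 3 than on number 1 under every alternative (636 values, of which 19 no longer passed, all of Tagln and Col12a1), and 29 to 32 members passed. Leaving out arrays gave a median of 2.52 to 3.21 (2.91 with all arrays). It was 2.75 with a pseudocount of 32, 2.43 with the larger one and 2.65 with the mean over probe sets. The F test over numbers called 2409 genes, 1432 without the trend and 177 to 2705 with arrays left out (1224 without Eomes+ 1, 1380 without Eomes- 3, 934 without both number 1 arrays), and 20 to 31 members; the lowest values came without both number 3 arrays, which also ends the 3 against 1 comparison. In the fraction test 17 genes passed with the replicate block and 253 with array weights (0 otherwise), and no member did in any alternative. Each probe set's deviations from its fraction mean were correlated between same-numbered Eomes+ and Eomes- arrays. These correlations of deviations, not of the signals themselves, were 0.595, 0.0989 and 0.628 for numbers 1, 2 and 3. With 0.0989 for number 2, the numbers were not taken as pairs in the main fraction fit. The fit by number still takes arrays of the same number as replicates, so the 2 fits treat the numbers differently. With the block 3 members (Cald1, Lox and Col6a2) had an unadjusted p under 0.05, and 0 without it. The SE of Lox was 0.30 with the block in place of 1.05. The fraction median (0.30) ran from -0.36 to 1.07 with arrays left out, including -0.31 and -0.03. Of 700 single fraction differences 106 changed sign. Lox (0.77) was -0.16 with its second probe set and -0.051 to 1.72 with arrays left out. Timp1 (-0.04) was 0.0080 after quantile normalization, 0.0048 with the larger pseudocount, 0.73 with array weights and -0.81 to 1.00 with arrays left out, including 0.90, 0.26 and 0.12. The cause was not tested for any of these changes. Alternatives for the count of members passing between numbers 3 and 1, and for counts higher in Eomes+ within numbers 2 and 3, were chosen after seeing the data. Signal near background compresses differences, which limits Col12a1, Timp3, Lum, Fap, Adamts4 and Cdh5.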

Other observations

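Outside all lists, the genes with the largest differences between the arrays numbered 3 and 1 were read by rule. Islr (4.85), Omd (4.67) and Mgp (4.15) encode secreted proteins of connective tissue, and Pdgfc (4.66) a ligand of the PDGF receptors. Islr read 4.19, 8.48 and 9.40 in Eomes+ and 5.40, 7.18 and 9.88 in Eomes-. Rapgef3 (4.65), Speg (4.52), Shox2 (4.47), Ninl (4.40) and Rab34 (4.15) followed. Hbb-b2, a beta globin gene of red blood cells, read 5.63, 9.10 and 9.71 in Eomes+ and 5.77, 8.05 and 9.93 in Eomes-, a difference of 4.12. These genes passed the test (limma, adjusted p under 0.05). Islr, Omd, Rapgef3, Shox2, Ninl and Rab34 lay below the filter level on both number 1 arrays, Pdgfc, Speg and Hbb-b2 on 1 of them, and Mgp on none. Those below it on both were kept through the arrays where they are high. Apart from Mgp, the sizes and their order are set in part against background signal. In the other direction Med12l (-3.51), Slc15a1 (-3.15), Rpl39l (-2.90) and Zdhhc2 (-2.73) passed and were lower on the number 3 arrays, and Zcchc3 (-2.89) did not pass. Of these, Med12l and Slc15a1 lay below the filter level on both number 3 arrays, Rpl39l and Zcchc3 on 1, and Zdhhc2 on none.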
